A study of Homo sapiens with 6 samples.

Results

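The genes described here are the 7 genes of the human 14-3-3 family (YWHAB, YWHAE, YWHAG, YWHAH, YWHAQ, YWHAZ and SFN) and 2 genes of RNA-binding proteins, RBM17 and PUM2, chosen by name because their products are tied to the protein or the RNA of ATXN1. They are 9 of the 60554 gene identifiers in the count files, and all 9 were among the 18683 genes with enough counts to be tested. They were measured by RNA sequencing in Daoy cells, an established line from a human medulloblastoma of the cerebellum. The cells received ZBTB7B by lentivirus, either wild type (WT, 3 libraries) or with the substitution R363L in its zinc-finger domain (ZFmut, 3 libraries), at a multiplicity of infection of 15 for 72 hours, followed by 4 days in medium with 10% fetal bovine serum. Both groups therefore carried a ZBTB7B transgene, and libraries of cells without one were not analysed here. A difference below is always WT against ZFmut, and shows nothing about either protein against untreated cells.

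ATXN1 is the protein whose expanded glutamine tract causes spinocerebellar ataxia type 1, a disease in which Purkinje cells of the cerebellum degenerate. Phosphorylation of a serine near its C-terminus creates a docking site for 14-3-3 proteins, which are small acidic dimers that bind phosphorylated serines and threonines, and 14-3-3 binding slows the clearance of ATXN1. RBM17 is a splicing factor that joins ATXN1 in a protein complex, and PUM2 belongs to the Pumilio family, which binds short elements in 3′ untranslated regions (3′ UTRs) and lowers the stability or translation of the bound RNA. ZBTB7B is a zinc-finger transcription factor, also known as ThPOK and cKrox, and G-rich promoter elements have been described for it under the latter name.

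The promoter sequences of 4 of the genes are shown because they hold 2 matches or none to GGGAGGG, a G-rich run that was searched on both strands (its reverse complement is CCCTCCC), and because YWHAG, SFN and PUM2 passed the test below while YWHAQ did not. Each is the 250 bases before an annotated start, 5′ to 3′ on the strand of the gene, from RefSeq on GRCh38.p14, in lower case with matches in capitals. The positions are chr7:76358992-76359241 (minus strand) for YWHAG, chr1:26862899-26863148 (plus strand) for SFN, chr2:9630998-9631247 (minus strand) for YWHAQ and chr2:20350845-20351094 (minus strand) for the third of 3 PUM2 windows.
YWHAG: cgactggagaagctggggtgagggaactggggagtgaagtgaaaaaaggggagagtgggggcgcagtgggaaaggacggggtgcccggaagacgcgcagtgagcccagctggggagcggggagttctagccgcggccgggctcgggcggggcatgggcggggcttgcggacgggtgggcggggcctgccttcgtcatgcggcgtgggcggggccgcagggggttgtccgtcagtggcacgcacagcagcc
SFN: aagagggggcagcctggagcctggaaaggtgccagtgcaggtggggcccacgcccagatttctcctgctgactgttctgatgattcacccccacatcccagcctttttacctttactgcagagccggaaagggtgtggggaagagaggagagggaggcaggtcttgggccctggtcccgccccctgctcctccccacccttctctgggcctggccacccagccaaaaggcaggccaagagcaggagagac
YWHAQ: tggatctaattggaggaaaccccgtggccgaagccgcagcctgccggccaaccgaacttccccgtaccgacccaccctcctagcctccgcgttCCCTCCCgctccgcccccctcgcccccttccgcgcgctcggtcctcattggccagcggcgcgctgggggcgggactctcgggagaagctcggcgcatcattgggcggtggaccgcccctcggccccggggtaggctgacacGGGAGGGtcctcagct
PUM2: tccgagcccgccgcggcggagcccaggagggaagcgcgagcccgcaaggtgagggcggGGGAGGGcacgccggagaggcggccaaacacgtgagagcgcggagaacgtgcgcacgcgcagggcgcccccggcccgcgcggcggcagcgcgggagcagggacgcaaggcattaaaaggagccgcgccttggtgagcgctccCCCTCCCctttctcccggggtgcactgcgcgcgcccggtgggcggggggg
A window was found for 8 of the 9 genes, all but YWHAZ. YWHAB and YWHAQ each held 2 matches, YWHAH held 1, and YWHAE, YWHAG, SFN and RBM17 held none, while the 3 PUM2 windows held 0, 1 and 2. PUM2 windows 2 and 3 overlap, and the match in window 2 is also 1 of those in window 3. Of all 35116 promoter windows of this length, 24.7% held at least 1 match and 6.9% at least 2, so windows with a match were common. Of the members that passed the test, YWHAG and SFN held none and PUM2 held 0 to 2 by window. YWHAZ, which also passed it, could not be searched. Of the members that did not pass it, YWHAB and YWHAQ held 2 each, YWHAH 1, and YWHAE and RBM17 none. Whether the matches bear on the differences was not tested. A match is a run of letters and not a measured binding site.

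The 6 libraries held 22236214 to 102730428 counts assigned to genes, and the 9 members had between 192 (SFN) and 138946 (YWHAE) counts in any library, so that SFN has the largest counting error of the 9. Levels are given as CPM, counts relative to the scaled size of the library, and the test was edgeR's quasi-likelihood test over all 18683 genes with Benjamini-Hochberg adjustment, a gene being called higher or lower in WT at an adjusted p under 0.05. ZBTB7B itself was at 904 ± 44.3 CPM in WT and 576 ± 43.8 CPM in ZFmut (mean ± SD, n = 3 each), which is 0.65 ± 0.06 (SE) higher on the log2 scale (edgeR adjusted p = 1.39e-06). Its counts add the transgene to the cells' own gene, so the groups differed in the amount of ZBTB7B RNA as well as in the substitution, and those effects cannot be told apart. Of markers for neural cells and medulloblastoma, 3 of 11 tested genes were higher in WT (MAP2 1.30, GLI1 0.34 and PTCH1 0.14 on the log2 scale) and 4 lower (SOX2 -0.84, GFAP -0.80, NES -0.45 and SFRP1 -0.21), and the part of this in the results below was not tested. GFAP rests on at most 82 counts in any library. VIM was at 662 ± 3.86 CPM in WT and 663 ± 37.7 in ZFmut, and NES, a marker of neural progenitors, at 116 ± 12.9 and 159 ± 13.3, whereas ATOH1, a factor of cerebellar granule cell precursors, had at most 4 counts in any library. Nothing in the labels ties the libraries to separate cultures; the p-values rest on the spread between the 6 libraries, which may be technical.

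The genes moved little. YWHAZ, PUM2 and YWHAG were higher in WT by 1.18-fold, 1.16-fold and 1.11-fold, SFN was lower by 1.26-fold, and the other 5 members did not pass the test. Across all genes tested, 18.4% were called higher and 17.2% lower in WT, the background against which 3 of 9 and 1 of 9 are to be read; with 9 genes these counts are not called particular to the members. In CPM, the 3 WT libraries did not overlap the 3 ZFmut libraries for 7 of the 9 members, 5 of them higher and 2 lower in WT. Of all genes tested, 47.2% were without overlap in CPM in either direction. The count depends on the measure. In TPM, the measure per length used further below, YWHAB overlapped (121.7 to 130.3 in WT, 109.6 to 122.3 in ZFmut). So did YWHAH (220.3 to 234.6 in WT, 224.1 to 244.5 in ZFmut).

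**Figure D1:**
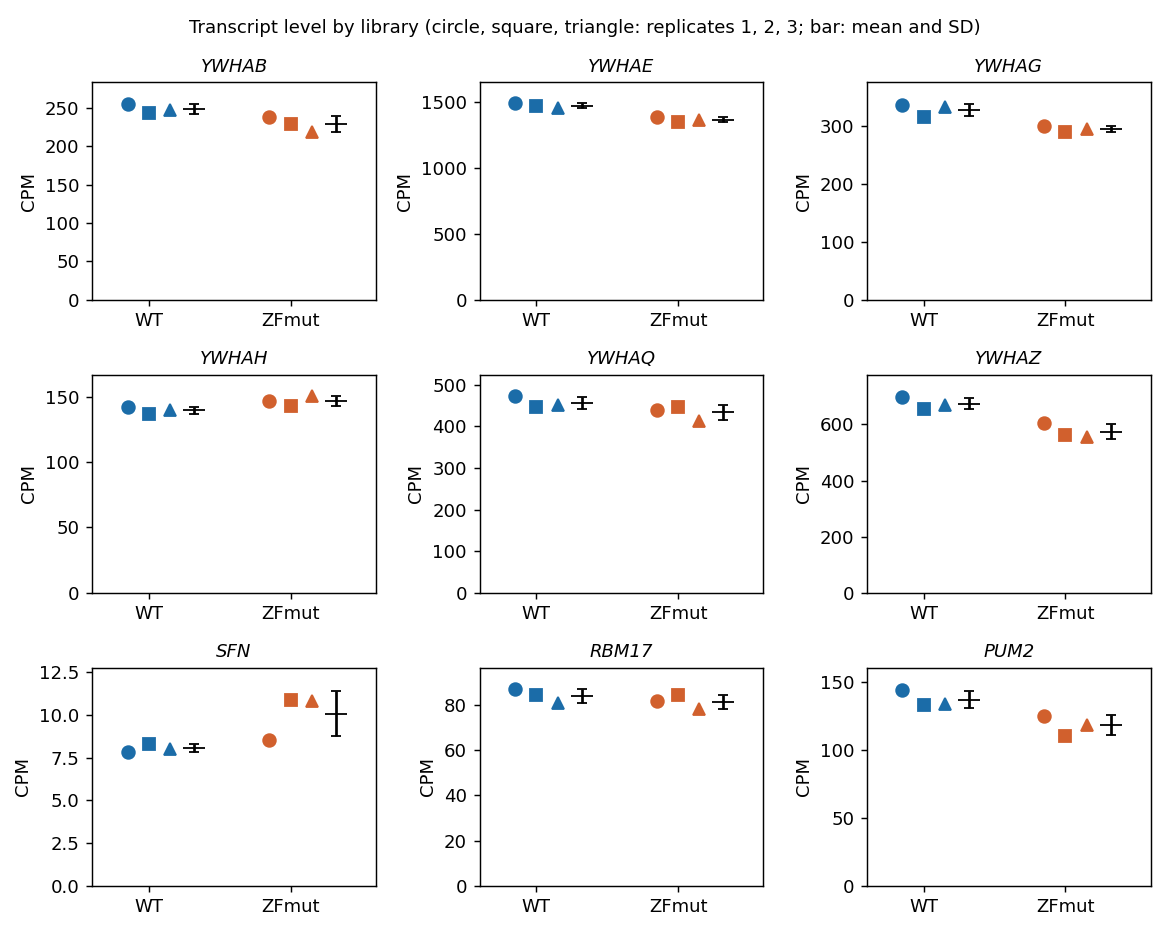
Level of each of the 9 genes in every library (vertical axis, CPM from 0), with circles, squares and triangles for replicates 1, 2 and 3 of WT (blue) and ZFmut (orange) and a bar for the mean and SD of each group. The libraries of the groups overlap for YWHAQ and RBM17 and stand apart for the other 7 genes, with SFN and YWHAH lower in WT.

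YWHAZ encodes the zeta isoform, a broadly expressed 14-3-3 protein, on chromosome 8 from 100916525 to 100953388 (minus strand, GRCh38, GENCODE release 29). Its levels were 698, 656 and 671 CPM in WT libraries 1 to 3 and 605, 561 and 556 CPM in ZFmut libraries 1 to 3. Every WT library was above every ZFmut library, and the gap between the groups was wider than the range within either. Group means were 675 ± 21.2 CPM in WT and 574 ± 26.7 CPM in ZFmut (SD, n = 3 each). On the log2 scale WT exceeded ZFmut by 0.23 ± 0.05 (SE, 95% interval 0.12 to 0.34, adjusted p = 0.00268 by edgeR). The call held when each of the 6 libraries was left out in turn.

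YWHAG encodes the gamma isoform, which is abundant in brain and in which variants cause an early epileptic encephalopathy, and lies on chromosome 7 from 76326794 to 76359031 (minus strand). It was at 335, 315 and 331 CPM in WT and at 299, 288 and 294 CPM in ZFmut. The lowest WT library was above the highest ZFmut library, with group means of 327 ± 10.5 and 294 ± 5.24 CPM. The log2 difference was 0.16 ± 0.05 (SE, 95% interval 0.05 to 0.26, edgeR adjusted p = 0.0245). The call was lost without WT library 1 (edgeR adjusted p = 0.133), WT library 3 (0.108), ZFmut library 2 (0.0510) or ZFmut library 3 (0.0633), and with no filter on low counts (0.0571).

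SFN encodes the sigma isoform, known as stratifin, which is typical of epithelial cells and is a p53 target that acts in cell cycle arrest. It is a gene of a single exon on chromosome 1 from 26863138 to 26864457 (plus strand). Its levels were 7.84, 8.31 and 8.04 CPM in WT and 8.57, 10.9 and 10.8 CPM in ZFmut. ZFmut library 1 lay close to the WT libraries and the other 2 ZFmut libraries lay above them, with no overlap. The group means were 8.06 ± 0.233 and 10.1 ± 1.32 CPM, and the fitted log2 difference was -0.34 ± 0.10 (SE, 95% interval -0.55 to -0.13, edgeR adjusted p = 0.0154). Without ZFmut library 3 the difference was -0.27 with an edgeR adjusted p of 0.1202, and the call was also lost without WT library 3 (0.0509) or ZFmut library 2 (0.0546).

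YWHAE and YWHAB had small differences that did not pass the test. YWHAE, the epsilon isoform, whose loss lowers the amount of ATXN1 protein in mouse cerebellum, lies on chromosome 17 from 1344272 to 1400378 (minus strand). It was at 1493, 1472 and 1453 CPM in WT and at 1389, 1349 and 1364 CPM in ZFmut, so the groups did not overlap. The log2 difference was 0.11 ± 0.04 (SE, edgeR adjusted p = 0.0703). YWHAB, the beta isoform and a regulator of RAF kinases, lies on chromosome 20 from 44885676 to 44908532 (plus strand). Its levels were 256, 244 and 247 CPM in WT and 239, 229 and 218 CPM in ZFmut, again without overlap. The log2 difference was 0.12 ± 0.05 (SE, 95% interval 0.01 to 0.24, edgeR adjusted p = 0.0844). Both genes were near the threshold: YWHAE passed it with a filter of 5 CPM (edgeR adjusted p = 0.0306), and YWHAB passed it without ZFmut library 1 (0.0453).

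YWHAQ and YWHAH, the theta and eta isoforms, did not pass the test either. YWHAQ (chromosome 2, 9583972 to 9631014, minus strand) was at 473, 446 and 451 CPM in WT and at 441, 447 and 414 CPM in ZFmut, and ZFmut library 2 lay above WT library 2. The log2 difference was 0.07 ± 0.05 (SE, edgeR adjusted p = 0.289). YWHAH (chromosome 22, 31944461 to 31957603, plus strand) was at 142, 136 and 139 CPM in WT and at 147, 143 and 150.5 CPM in ZFmut. All WT libraries of YWHAH were below all ZFmut libraries, by a smaller ratio of means than for the 4 called genes. Its log2 difference was -0.07 ± 0.05 (SE, 95% interval -0.18 to 0.03, edgeR adjusted p = 0.272).

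PUM2, the Pumilio protein, lies on chromosome 2 from 20248691 to 20352234 (minus strand) and was higher in WT. It was at 144, 133 and 134 CPM in WT and at 125, 111 and 119 CPM in ZFmut, so the groups did not overlap. PUM2 averaged 137 ± 6.15 CPM in WT and 118 ± 7.45 CPM in ZFmut, and its log2 difference was 0.21 ± 0.06 (SE, 95% interval 0.09 to 0.34, edgeR adjusted p = 0.0104). Without WT library 1 the difference was 0.17 and the call was lost (edgeR adjusted p = 0.0604). RBM17, the splicing factor (chromosome 10, 6088987 to 6117457, plus strand), was at 87.1, 84.3 and 80.9 CPM in WT and at 81.7, 84.6 and 78.3 CPM in ZFmut. The RBM17 groups overlapped, and the log2 difference was 0.05 ± 0.05 (SE, 95% interval -0.07 to 0.16, edgeR adjusted p = 0.525). ATXN1 itself was at 136, 144 and 142 CPM in WT and at 118, 115 and 123 CPM in ZFmut, 0.25 ± 0.05 (SE) higher in WT on the log2 scale (adjusted p = 0.00170 by edgeR).

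**Figure D2:**
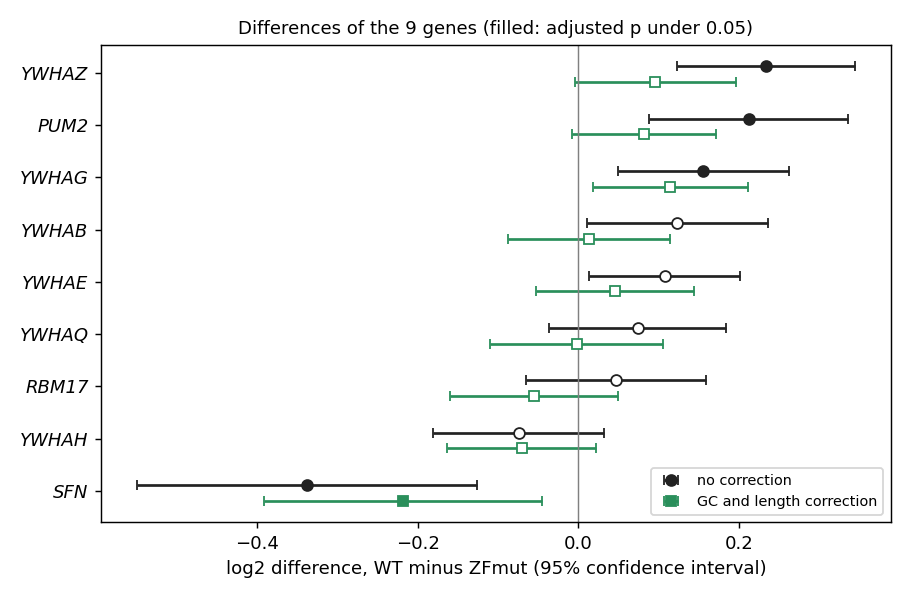
Log2 difference, WT minus ZFmut, of each member (horizontal axis) with its 95% interval, before (black) and after (green) correction for GC content and exon length, filled where the adjusted p was under 0.05. YWHAZ, PUM2 and YWHAG lie above 0 before correction and closer to 0 after it, and SFN lies below 0 in both.

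The base composition of the transcripts moved with these differences. Over all tested genes, the median log2 difference was 0.11 in the lowest of 4 equal bins of GC content (26.5% to 42.4% in the longest transcript), 0.05 and -0.05 in the middle bins, and -0.15 in the highest (56.5% to 83.9%). In the lowest bin 26.7% of genes were called higher and 4.62% lower in WT, and in the highest bin 11% were called higher and 32.7% lower. YWHAZ and PUM2, both at 40.7% GC, belong to the lowest bin, and SFN, at 62.8%, belongs to the highest. YWHAB, YWHAE, YWHAG, YWHAQ and RBM17, at 43.2% to 46.8%, belong to the second, and YWHAH, at 50.2%, to the third. Thus all 7 members below the median GC content had a positive difference and both members above it had a negative one. Exon length moved with the differences less, with medians of -0.04, -0.02, 0.01 and 0.06 from the shortest to the longest of 4 such bins.

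**Figure D3:**
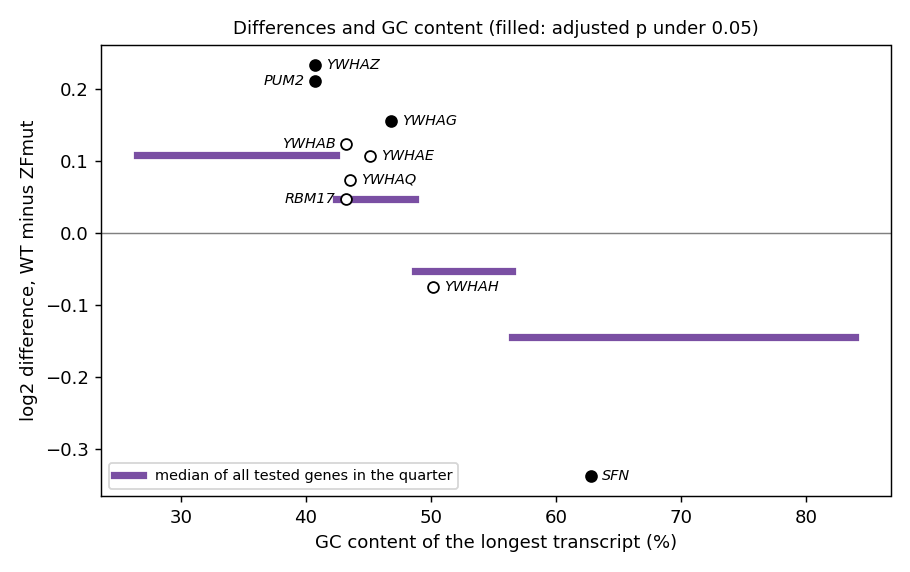
Log2 difference, WT minus ZFmut, against the GC content of the longest transcript (percent), with a point for each of the 9 members (filled where the adjusted p was under 0.05) and bars for the median of all tested genes in each of 4 bins. YWHAZ and PUM2 at 40.7% GC lie above 0 and SFN at 62.8% lies below it, on the same side as the median of the genes of like GC content.

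With a trend on GC content and exon length removed from each library, none of the 9 members was called higher and SFN alone was called lower, against 17.2% of all genes called higher and 21.6% called lower in that fit. The corrected difference of YWHAZ was 0.10 (95% interval -0.0046 to 0.20, edgeR adjusted p = 0.124) and that of PUM2 was 0.08 (-0.01 to 0.17, adjusted p = 0.143). YWHAG changed least among the 3 higher genes, to 0.11 (0.02 to 0.21, edgeR adjusted p = 0.0563). YWHAQ and RBM17, uncalled in either fit, moved from 0.07 to -0.0017 and from 0.05 to -0.06. SFN stood at -0.22 (-0.39 to -0.05, edgeR adjusted p = 0.0428), and ATXN1 stayed called at 0.14 (edgeR adjusted p = 0.0239). A second way of removing the trends, GC content first and then length, chosen after seeing the data, called YWHAG higher (edgeR adjusted p = 0.0289) and left SFN uncalled (-0.18, 0.0796). What part of the differences GC content accounts for was not tested beyond these fits.

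Levels can be compared between genes only per length, and for this the counts were turned into TPM, transcript abundance relative to all transcripts of the library, using the length of all annotated exons of a gene. In both groups the order was YWHAE, YWHAQ, YWHAG, YWHAZ, YWHAH, YWHAB, PUM2, RBM17 and SFN from highest to lowest, and no neighbours in this order overlapped within a group. With the length of the longest transcript in its place, YWHAZ stood above YWHAG. The 14-3-3 family summed to 3354, 3172 and 3227 TPM in WT and to 3127, 2899.99 and 2980 TPM in ZFmut. The sums did not overlap, and their means of 3251 ± 93.1 and 3002.5 ± 115 TPM had a ratio of 1.083. The sums were not corrected for the trend on GC content. YWHAE and YWHAQ, which supply most of them, were uncalled before that correction and after it (corrected log2 differences 0.05 and -0.0017). TPM is relative to all transcripts of a library, so a lower sum says nothing of the amount of RNA per cell. In bulk RNA, fewer cells of a type and a lower share of these transcripts in each cell cannot be told apart.

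YWHAE supplied the largest share of the family sum, 47.2% ± 0.554 in WT and 46.9% ± 0.437 in ZFmut (SD, n = 3 each), followed by YWHAQ with 20.7% and 21.1%, and for both the groups overlapped. The YWHAZ share was 9.72% ± 0.130 in WT and 8.86% ± 0.275 in ZFmut, without overlap. The YWHAH share went the other way, from 7.001% ± 0.0593 in WT to 7.90% ± 0.266 in ZFmut, and so did that of SFN, with 0.753% ± 0.0352 and 1.01% ± 0.146. YWHAH itself was uncalled (edgeR adjusted p = 0.272) and its TPM overlapped between the groups, so its share also moved with the sum. Like the sums, the shares were not corrected for the trend on GC content. YWHAG made up 10.8% and 10.3%, and YWHAB 3.86% and 3.80%. SFN thus contributed the smallest share of the family's transcripts in both groups.

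**Figure D4:**
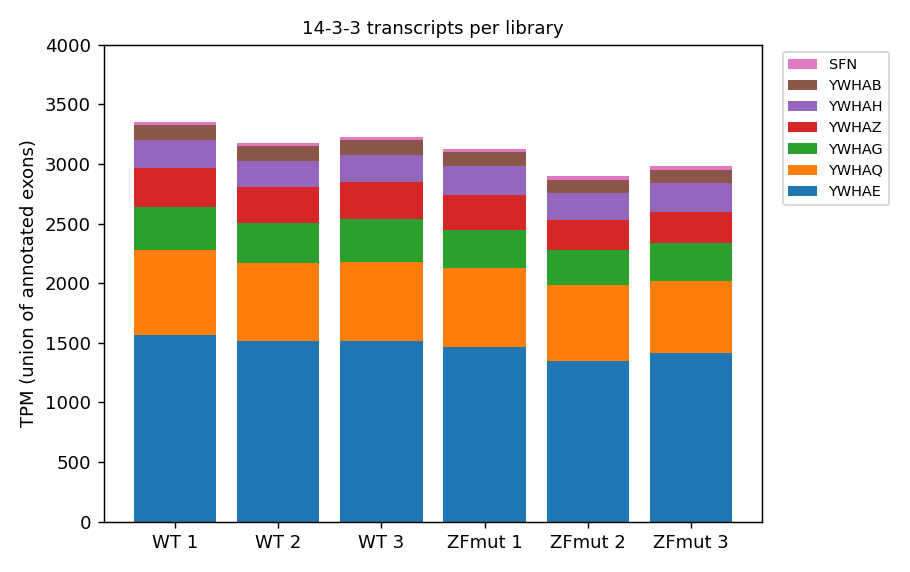
Transcripts of the 7 14-3-3 genes in each library, in TPM by the length of all annotated exons. YWHAE and YWHAQ make up most of each library, and the 3 WT sums (3172 to 3354) lie above the 3 ZFmut sums (2899.99 to 3127).

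Some stretches of these genes are not unique to them. Of the 50-base stretches of the exons, 7.63% for YWHAZ, 2.88% for YWHAE, 2.24% for YWHAH, 1.73% for YWHAQ and 0.89% for RBM17 occur in another annotated gene, and none for the other 4 members. The 8 YWHAZ copies in the annotation together held 0.0403% to 0.0892% of its counts. Adding each member's copies to it changed no call. As copies held at most 0.508% of a member's counts (RBM17), this sum could hardly have changed one. Reads with no unique alignment are in neither count, and other genes that share a stretch were not added, so neither was covered by this check. YWHAZP4, a copy of YWHAZ with at most 23 counts, differed by -0.07 ± 0.39 (SE) in log2 (adjusted p = 0.910 by edgeR). YWHAH has no annotated copy: its shared stretches all lie in Z82190.2, a gene whose exons overlap 4.28% of the YWHAH exons on the same strand and for which no counts were analysed here. Exons of YWHAH also overlap C22orf24 on the other strand over 0.9% of their length; whether counting used strand is not given in the sources used here, and C22orf24 had at most 32 counts.

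For each called member, the protein-coding genes of 10 CPM or more with the most similar log2 CPM over the 6 libraries were sought among 9973 genes by Pearson's r. The nearest to YWHAZ were SDCBP (r = 0.999) and TMOD3 (0.9989), to PUM2 SNX27 (0.9988) and TMEM168 (0.9987), to YWHAG WDFY3 (0.9993) and LIFR (0.9986), and to SFN NCOA5 (0.9955) and HTRA2 (0.995). Such likeness was common: 944 genes had an r over 0.95 with YWHAZ, 747 with YWHAG, 669 with PUM2 and 294 with SFN. All the points share the same 6 libraries and their depths. The 8 genes were picked for likeness to called members in these same libraries, so a call among them largely follows from the choice and adds no support. NCOA5 was uncalled, at -0.05 ± 0.05 (SE) in log2 (adjusted p = 0.432 by edgeR), while the other 7 were called.

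PUM2 and its relatives bind the element TGTANATA in RNA (with U for T), and the longest annotated 3′ UTR of each member and of ATXN1 was searched for it on the transcribed strand. PUM2 held 2 matches, YWHAG and ATXN1 1 each, and the other 7 members none, while 29% of 14575 genes held at least 1. The matches are shown with 8 bases on each side, the element in capitals, from GENCODE release 29 transcripts on GRCh38, because PUM2, YWHAG and ATXN1 were all higher in WT.
PUM2 first site: tatagagaTGTATATAgaattata
PUM2 second site: agaaatatTGTATATActtacata
YWHAG site: gatttttaTGTACATAcgctctcg
ATXN1 site: tgttttttTGTATATAgaaatttg
The PUM2 sites start at bases 425 and 685 of a 3′ UTR of 2894 bases, the YWHAG site at base 375 of 2783, and the ATXN1 site at base 5275 of 7217. YWHAZ, the member with the smallest p, held none, and binding at these sites was not measured. A bearing of the sites on the differences was not tested.

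Genes around the members were counted by lists, chosen with earlier results of these data known. Over 7 pathway lists with 108 distinct tested genes, 25% were called higher and 19.4% lower in WT, against 18.4% and 17.2% of all tested genes, and the median log2 difference was 0.02 against 0.00. The counts of the single lists below are to be read against the same 18.4% and 17.2%. The kinases and phosphatases of the ATXN1 serine that 14-3-3 binds included the steepest difference: RPS6KA2, a ribosomal S6 kinase, was at 131 ± 5.92 CPM in WT and 32.5 ± 1.83 in ZFmut, or 2.003 ± 0.06 (SE) higher on the log2 scale (adjusted p = 1.96e-11 by edgeR). PPP2CB, a catalytic subunit of protein phosphatase 2A (0.24), was also higher, as were PRKACB, a catalytic subunit of protein kinase A (0.25), and PPP2CA (0.17), and RPS6KA4, the kinase MSK2, was lower (-0.37). Of this list 5 of 15 genes were higher and 1 lower (median 0.06), and 3 were higher without WT library 3, ZFmut library 2 or ZFmut library 3. In the RAS to MAP kinase cascade upstream of those kinases, 3 of 12 were lower (median -0.0014): KSR1, a scaffold of the cascade (-0.39), ARAF (-0.29) and MAPK3, the kinase ERK1 (-0.25), fell.

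Of ATXN1 and its direct partners, 3 of 10 were higher and 5 lower in WT (median -0.05). PAK1, a kinase reported to bind and raise ATXN1, was higher (0.44), as were ATXN1 and RORA, a nuclear receptor of Purkinje cells (0.32), and STUB1, the ubiquitin ligase CHIP that acts on ATXN1, was lower (-0.34, edgeR adjusted p = 0.00122). Also lower were CIC (-0.27), HDAC3 (-0.19) and UBQLN4 (-0.16), of which CIC is the transcriptional repressor that ATXN1 binds. The number lower fell to 3 without WT library 1, WT library 3 or ZFmut library 2, and to 1 without ZFmut library 3. Of 30 client proteins of 14-3-3, which are held in the cytoplasm or restrained when bound, 8 were higher and 7 lower (median -0.01). FOXO1, a transcription factor kept out of the nucleus by 14-3-3, was at 30.6 ± 0.587 CPM in WT and 19.4 ± 1.61 in ZFmut, a log2 difference of 0.65. IRS2, an adaptor of the insulin receptor (0.73), and NEDD4L, a ubiquitin ligase (0.37), were also higher. The clients lower in WT included IRS1, the other insulin receptor adaptor of the list (-0.46, edgeR adjusted p = 0.000162), HDAC7, a histone deacetylase (-0.40), and BCR (-0.35). The number of clients lower fell to 4 without ZFmut library 2 or ZFmut library 3.

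The splicing partners of RBM17 at the 3′ splice site and in the U2 snRNP had 4 of 17 genes lower and none higher in WT (median -0.04). SF3B2, a subunit of the SF3b complex, was at 422 ± 15.7 CPM in WT and 485 ± 11.4 in ZFmut (log2 difference -0.20, edgeR adjusted p = 0.00601), beside PUF60 (-0.20), SF3A2 (-0.28) and RBM10 (-0.19). The count fell to 2 without WT library 1, ZFmut library 2 or ZFmut library 3, SF3A2 was lost in each of these 3 fits, and PUF60 was lost after the GC and length correction (-0.08, edgeR adjusted p = 0.208). Of the cofactors of Pumilio proteins and the CCR4-NOT complex, which shortens poly(A) tails, 7 of 16 tested genes were higher and 1 lower (median 0.10). CNOT6 (0.37) and CNOT6L (0.42), deadenylase subunits, and BTG1 (0.48), an antiproliferative partner of the complex, were higher, whereas NORAD, a long noncoding RNA that binds Pumilio proteins, was at 0.05 (edgeR adjusted p = 0.468). The number higher fell to 3 without WT library 1, WT library 3, ZFmut library 2 or ZFmut library 3, and to 4 after the GC and length correction. The gene lower was NANOS1 (-0.37, edgeR adjusted p = 0.0316), a partner of Pumilio proteins, and no gene of the list was lower without WT library 2, WT library 3, ZFmut library 2 or ZFmut library 3.

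A list for SFN, made of its known regulators together with CDKN1A, had 3 of 8 tested genes higher in WT and none lower (median 0.17). Whether these genes bear on the SFN difference was not tested. CDKN1A, a p53 target and cell cycle inhibitor listed as a readout of p53, was at 80.2 ± 2.03 CPM in WT and 43.6 ± 0.594 in ZFmut (log2 difference 0.88, edgeR adjusted p = 1.31e-08). KLF4, a transcription factor of epithelia, was also higher (0.63), and so was COP1, a ubiquitin ligase for p53 and SFN (0.17, edgeR adjusted p = 0.0347), though COP1 was lost without any single library other than ZFmut library 2 (0.0569 to 0.160). Epithelial markers, given beside SFN because that gene is typical of epithelium, had 2 of 8 tested genes higher and 3 lower. Of these, CDH1 was higher (2.69) and KRT18 lower (-0.24). CDH1 was scarce, at 2.91 ± 0.412 CPM in WT and 0.471 ± 0.0428 in ZFmut, with at most 170 counts in any library. The sum of the epithelial markers was 1052 to 1074 CPM in WT and 899 to 1031 CPM in ZFmut. DSP, of desmosomes, was at 670 ± 11.3 CPM in WT and 322 ± 5.16 in ZFmut, KRT8 at 263 ± 19.0 and 461 ± 50.5, and CLDN4, of tight junctions, at 12.2 ± 0.913 and 37.5 ± 1.36, so that SFN shared its direction with KRT8 and CLDN4 and not with DSP. KRT5 and KRT14, defining markers of basal epithelium, had at most 5 counts in any library. The part of epithelial character in the SFN difference was not tested.

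**Figure D5:**
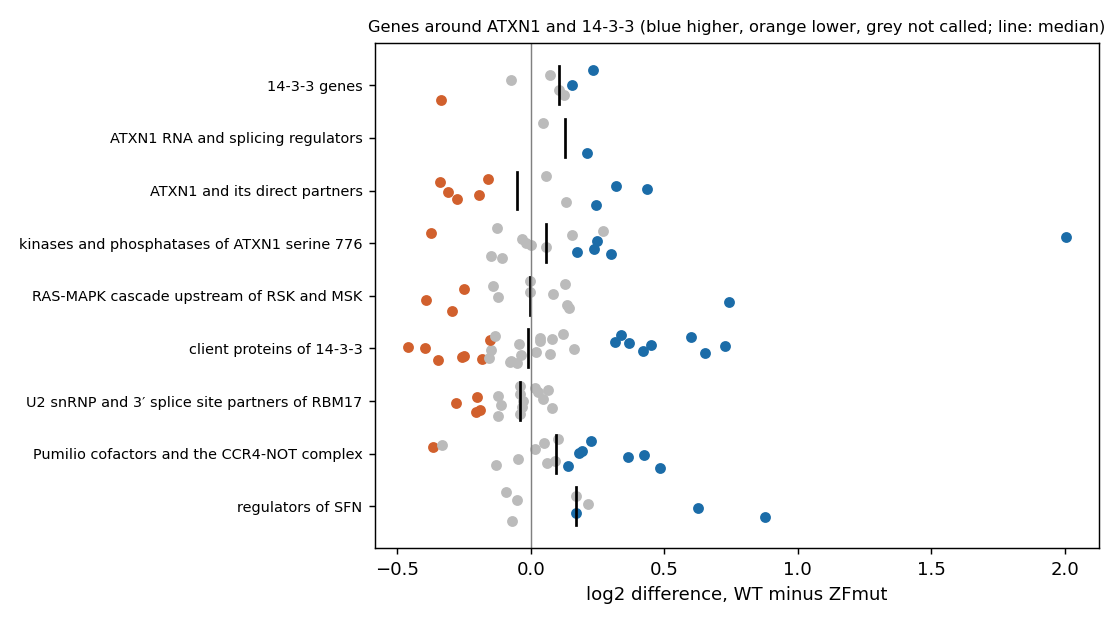
Log2 difference, WT minus ZFmut, of each tested gene in the gene lists around the members, 1 row per list, with genes called higher in blue, lower in orange and neither in grey, and a line at each median. RPS6KA2 at 2.003 stands far to the right of the other points in its list, and the medians of the 7 pathway lists lie between -0.05 and 0.17.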

How the data were processed

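Total RNA of 6 libraries (3 WT, 3 ZFmut) was sequenced, and the authors deposited a table of raw counts of reads per Ensembl gene for each. The submitters' processing notes name cutadapt, TopHat2 2.0.9, HTSeq, DESeq2 and GRCh38. For the annotation release and the strand setting, nothing was given in the sources used here. Identifiers were matched to GENCODE 29 without their version (56996 of 60554). The 5 summary lines of each file stayed out of library sizes. Reads with no unique alignment were 16.1% to 19.4%, ambiguous reads 7.71% to 8.08% and reads on no gene 5.04% to 6.56% of the lines in a file.

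Counts were filtered by filterByExpr, scaled by TMM and tested with edgeR 4.0.16 in R 4.3.3 (glmQLFit and glmQLFTest, group as the only term, Benjamini-Hochberg adjustment over 18683 genes, threshold 0.05, common biological coefficient of variation 6.27%). The fit was tested on simulated data with 200 changed genes. GC content and exon length were corrected by loess offsets per library (span 0.5). Alternatives were other scalings, DESeq2 1.42.0, limma-voom 3.58.1, other filters, leaving out each library, thinning to the smallest library, and the replicate number as a block. No pair of libraries within a group was a duplicate (chi-square per degree of freedom 3.44 to 8.06).

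The genes named are all members, ZBTB7B, ATXN1 and RPS6KA2, up to 3 called genes with the smallest p in each list, copies and overlapping genes with at least 10 counts, and the 2 genes most like each called member. Other genes of short lists, and IRS1, HDAC7, BCR, KRT5, KRT14, VIM, ATOH1 and NORAD, were named after their values were seen. The members and lists were chosen with earlier results of these data known. Some genes that the rule names are not reported here.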

Additional observations from a re-analysis of the deposited data

How the results depend on the processing

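The separate GC and length trends were added after seeing the data. No called result changed direction. Against 3 members higher in WT, 5 were higher with the replicate block, 0 with the GC and length correction, 1 with that correction and the replicate block, 1 with the separate trends, and 1 to 4 when each library was left out. Against 1 member lower, 0 were lower with the separate trends and 0 to 1 when each library was left out. Against 21 pathway genes lower, 33 were lower with the replicate block, 34 with the correction and the replicate block, and 11 to 28 when each library was left out (11 without ZFmut library 3). With the length of the longest transcript, the 14-3-3 sum was 3588 TPM in WT and 3267 TPM in ZFmut. For single genes, 736 values kept their side of the threshold, 31 lost the call and 4 gained it. Of the 736, 10 changed sign, all of uncalled genes: 3 of YWHAQ and 3 of RBM17, in the fits with a GC and length correction, and 4 of YWHAZP4.

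Libraries with the same replicate number share only a number in the labels. The correlations of their deviations from the group means were 0.164, 0.077 and 0.064, each the highest for its library, which is a hint from the data and not the design. Under the replicate block YWHAB (edgeR adjusted p = 0.00330) and YWHAE (0.00394) passed the threshold.

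With 3 libraries a group, all from 1 cell line, differences of the size seen here lie near the threshold of the test. YWHAQ and RBM17 were above 0 in 15 of 18 alternatives each and uncalled in all. SFN rests on the fewest counts of the members. RNA levels show nothing of protein amounts or of phosphorylation.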

Other observations

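Genes were sorted by the number of Pumilio elements (TGTANATA) in their longest annotated 3′ UTR. The median log2 difference, WT minus ZFmut, was -0.03 over the 10352 genes with no element, 0.06 over the 2699 with 1, 0.11 over the 988 with 2 and 0.11 over the 536 with 3 or more, and the share called higher in WT was 17.5%, 27.2%, 33.4% and 36.4%. The GC content of the UTR fell across the same classes (medians 46%, 39.2%, 36.8% and 36.5%) while its length rose (959, 2217, 3181 and 4891 bases). After the correction for GC content and exon length the medians were -0.04, -0.02, -0.005 and -0.007.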
